A study of Caenorhabditis elegans with 6 samples.

Results

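The genes described here encode the voltage-gated calcium channels of Caenorhabditis elegans and the proteins that release calcium from, or return it to, the endoplasmic reticulum, together with the calcium sensor calmodulin. They were taken by name: egl-19, unc-2, unc-36, cca-1, ccb-1, unc-68, itr-1, sca-1 and cmd-1, 9 of 14700 genes in the count table, and all 9 were found there. Messenger RNA had been measured by CEL-seq, which tags and counts the 3′ ends of polyadenylated transcripts, in descendants of the QR neuroblast. This migratory cell on the right side of the larva gives rise to touch-sensing and oxygen-sensing neurons. First-stage larvae had been fed for 7 hours after arrest, and each library came from a pool of 2000 cells. The ΔN-BAR-1 larvae (3 libraries) carried mab-5(gk670), huIs166, ayIs9 and huIs179, and the series describes them as making, in the Q lineage, an N-terminally truncated form of BAR-1, the β-catenin of canonical Wnt signalling. The control larvae (3 libraries) carried mab-5(gk670), huIs166 and ayIs9, so both groups carried the deletion allele of the Hox gene mab-5. The labels do not name the promoter of the transgene. Nor do they say how the 3 libraries of a group were obtained, whether from separate cultures or from 1, and the p-values below refer to the spread among libraries, part of which may be technical.

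A voltage-gated calcium channel is built around an α1 subunit, which forms the pore and senses voltage. A β subunit inside the membrane and an α2δ subunit outside it help to bring the channel to the surface and set its gating. Calcium that enters can open ryanodine receptors in the endoplasmic reticulum, while inositol trisphosphate opens a separate release channel, and the SERCA pump refills the store. In neurons these proteins set the calcium signals that trigger transmitter release, and in muscle they couple excitation to contraction. Calmodulin binds the calcium and passes the signal to kinases and to the phosphatase calcineurin.

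Values below are counts of estimated transcripts and CPM, which are counts scaled to library size by TMM. Since 1 tag is counted per transcript, CPM here do not depend on transcript length. Library totals ran from 190078 to 237644 in ΔN-BAR-1 libraries and from 68431 to 254362 in control libraries, so that 1 count was worth 4.90 to 5.44 CPM in ΔN-BAR-1 pools and 4.11 to 16.5 CPM in control pools. Intervals of shares below are 95% Wilson intervals and cover counting error only. In pooled cells, fewer cells of a type and less RNA per cell cannot be told apart. Of the 9 genes, 6 passed the low-count filter, which stood at 48.5 CPM in 3 libraries before TMM scaling; unc-2, cca-1 and itr-1 did not. None of the control libraries reached that level for egl-19 or unc-68, and 1 did for ccb-1, so these 3 genes entered the test through the ΔN-BAR-1 libraries, and the count of genes that passed carries no support of its own.

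With ΔN-BAR-1, the L-type channel gene egl-19 and the ryanodine receptor gene unc-68 rose, by 3.12 ± 0.66 and 3.34 ± 0.67 on the log2 scale (SE; edgeR quasi-likelihood, Benjamini-Hochberg adjusted p = 0.0167 and 0.0118). The CaV2-type channel gene unc-2 had higher values in each ΔN-BAR-1 library than in any control library but fell just short of the filter. The β subunit gene ccb-1 and the calmodulin gene cmd-1 were likewise apart between the groups without passing the test. The α2δ gene unc-36, the T-type channel gene cca-1, the inositol trisphosphate receptor gene itr-1 and the SERCA gene sca-1 had overlapping groups. Of 3447 genes tested, 54 rose (1.57%) and 3 fell (0.087%), beside 2 and 0 of the 6 calcium genes tested. At an unadjusted p below 0.05, 8.21% of all genes were higher and 3.42% lower, beside 4 and 0 of these 6. Groups did not overlap, with ΔN-BAR-1 higher, for 10.4% of all tested genes, beside 4 of these 6. Since egl-19, unc-68 and ccb-1 entered the test through the ΔN-BAR-1 libraries, these counts out of 6 carry no support of their own either.

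**Figure D1:**
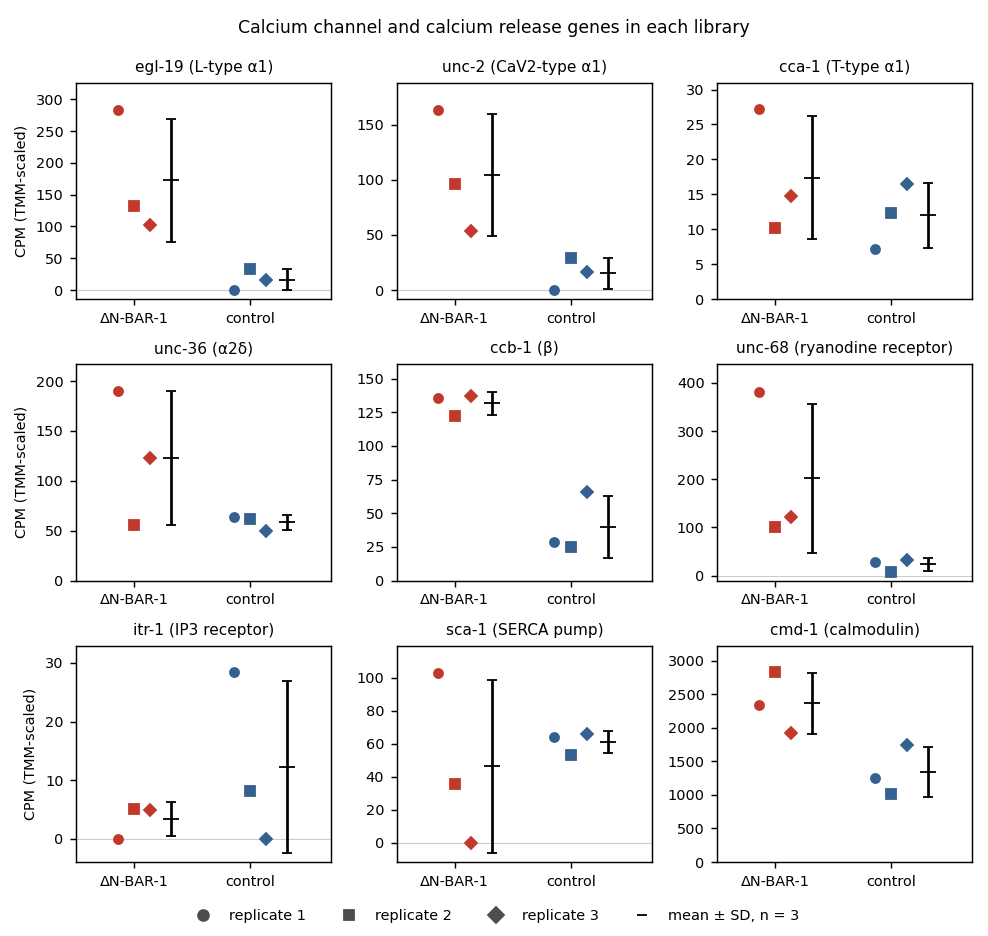
CPM of each of the 9 genes by library, with ΔN-BAR-1 on the left and control on the right of every panel; symbols are replicates and bars show the mean ± SD (n = 3). In egl-19, unc-2, ccb-1, unc-68 and cmd-1 all ΔN-BAR-1 symbols lie above all control symbols, and ΔN-BAR-1 replicate 1 is the highest library in 6 of the 9 panels.

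EGL-19 is the only L-type α1 subunit of the worm, known from action potentials in muscle and from calcium entry in neurons. Transcripts of egl-19 numbered 52, 26 and 21 in ΔN-BAR-1 replicates 1 to 3, against 0, 8 and 1 in control replicates 1 to 3. Scaled to library size these were 283, 132 and 102.8 CPM in ΔN-BAR-1 libraries, against 0, 32.9 and 16.5 CPM in control libraries. The mean was 173 ± 96.5 CPM in ΔN-BAR-1 and 16.46 ± 16.45 CPM in control libraries (SD, n = 3 each). Every ΔN-BAR-1 library was above every control library, and ΔN-BAR-1 replicate 1 was the highest. A count of 0 in control replicate 1 allows up to 21.3 CPM (3 counts). Since all control libraries together held 9 transcripts, the size of the change is uncertain. The call ended without control replicate 1 (log2 fold change 2.54, edgeR adjusted p = 0.105) or control replicate 3 (3.09, adjusted p = 0.0999), and without control replicate 2 the log2 fold change was 4.82. It also ended with limma-voom (adjusted p = 0.217), and over all 15 alternatives that tested egl-19 the adjusted p ran from 0.000102 to 0.217.

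UNC-2 is the CaV2-type α1 subunit, the channel of presynaptic terminals. Transcripts of unc-2 numbered 30, 19 and 11 in ΔN-BAR-1 replicates 1 to 3, against 0, 7 and 1 in control replicates. The corresponding levels were 163, 96.6 and 53.9 CPM in ΔN-BAR-1 libraries, against 0, 28.8 and 16.5 CPM in control libraries. The groups did not overlap, and the order of the libraries was the same as for egl-19. Before TMM scaling ΔN-BAR-1 replicate 3 stood at 46.3 CPM, just under the filter, so the main test did not include this gene. With no low-count filter, unc-2 was called (2.52 ± 0.67 on the log2 scale, SE; edgeR adjusted p = 0.0238). In the alternatives that tested it the log2 fold change ran from 1.98 without control replicate 1 to 4.09 without control replicate 2, the adjusted p ran up to 0.392, the value without control replicate 1, and it also passed without ΔN-BAR-1 replicate 3 (adjusted p = 0.0182).

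CCA-1, the T-type α1 subunit, opens at more negative voltages and is known from the pharynx. Its gene had 5, 2 and 3 transcripts in ΔN-BAR-1 libraries and 1, 3 and 1 in control libraries. These correspond to 17.3 ± 8.81 CPM in ΔN-BAR-1 and 11.97 ± 4.69 CPM in control libraries (SD, n = 3 each), and the groups overlapped. Without the filter the log2 fold change was 0.55 ± 1.15 (SE; edgeR adjusted p = 0.907), an error too wide to show a change of several fold in either direction. At this depth neither a difference nor its absence could be shown for cca-1.

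Transcripts of the 3 α1 genes together numbered 87, 47 and 35 in ΔN-BAR-1 libraries, against 1, 18 and 3 in control libraries. Within that sum, egl-19 made up 59.8% (interval 49.3 to 69.4%), 55.3% (41.2 to 68.6%) and 60.0% (43.6 to 74.4%) in ΔN-BAR-1 replicates 1 to 3. The share was nearly the same in the 3 libraries although the sum differed. In control replicate 2, the one control library with more than a few such transcripts, egl-19 made up 44.4% (24.6 to 66.3%), an interval that overlaps those of all ΔN-BAR-1 libraries. The share of unc-2 was 34.5%, 40.4% and 31.4% in ΔN-BAR-1 replicates 1 to 3, against 38.9% in control replicate 2. The mix of egl-19 and unc-2 was thus not distinguishable between the groups at these counts.

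**Figure D2:**
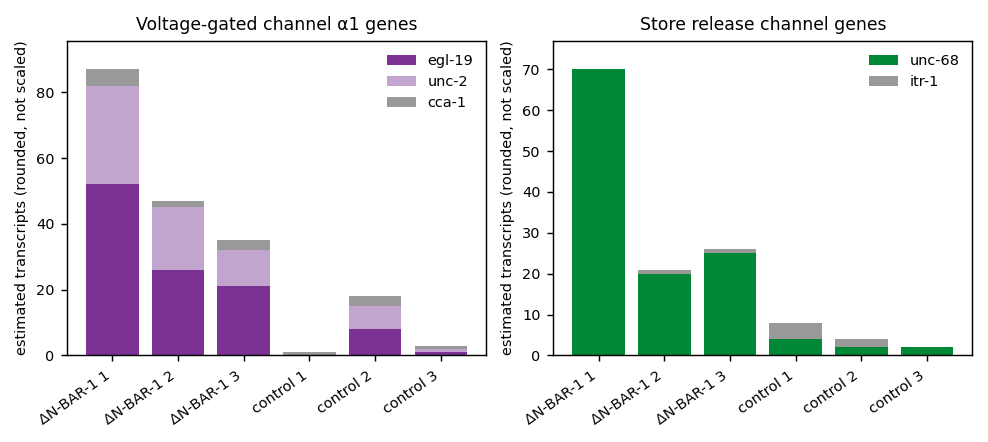
Estimated transcripts, rounded and not scaled to library size, of the α1 genes (left) and of the store release channel genes (right), stacked by gene, in ΔN-BAR-1 replicates 1 to 3 and then control replicates 1 to 3. The α1 sums are 87, 47 and 35 in ΔN-BAR-1 and 1, 18 and 3 in control libraries, and unc-68 makes up nearly all store release channel transcripts in ΔN-BAR-1 libraries.

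CCB-1 is a β subunit that binds α1 subunits on the inner side of the membrane. Its gene had 25, 24 and 28 transcripts in ΔN-BAR-1 replicates 1 to 3, against 4, 6 and 4 in control replicates. The levels were 136, 122 and 137 CPM in ΔN-BAR-1 libraries, against 28.4, 24.7 and 65.9 CPM in control libraries. The groups were well apart and the ΔN-BAR-1 libraries were close to each other, unlike those of egl-19 and unc-68, where replicate 1 stood above replicates 2 and 3. The log2 fold change was 1.95 ± 0.51 (SE), with an edgeR adjusted p of 0.0563, just above the threshold of 0.05. Over the alternatives the adjusted p ran from 0.0392 to 0.340, and it was below the threshold without ΔN-BAR-1 replicate 1 and with distinct identifiers (0.0420). The second β subunit gene, ccb-2, which was singled out after its values were seen, had 0, 1 and 0 transcripts in ΔN-BAR-1 libraries and 0, 0 and 1 in control libraries.

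UNC-36 is an α2δ subunit that works with UNC-2 and EGL-19 in neurons and muscle. Its gene had 35, 11 and 25 transcripts in ΔN-BAR-1 replicates 1 to 3, against 9, 15 and 3 in control replicates. The levels were 190, 55.9 and 122 CPM in ΔN-BAR-1 libraries, against 63.9, 61.7 and 49.4 CPM in control libraries. ΔN-BAR-1 replicate 2 lay within the control range, so the groups overlapped. The log2 fold change was 1.02 ± 0.50 (SE; edgeR adjusted p = 0.442), and none of 15 alternatives called it. For the other α2δ gene, tag-180, also singled out after its values were seen, 1 transcript was counted over all ΔN-BAR-1 libraries and 1 over all control libraries. The level of unc-36 was above that of unc-2 in ΔN-BAR-1 replicate 1, below those of egl-19 and unc-2 in replicate 2 and above both in replicate 3, and it was above both in all control libraries.

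UNC-68 is the only ryanodine receptor of the worm, best known from body wall muscle and also present in neurons. Transcripts of unc-68 numbered 70, 20 and 25 in ΔN-BAR-1 replicates 1 to 3, against 4, 2 and 2 in control replicates. The levels were 380, 102 and 122 CPM in ΔN-BAR-1 libraries, against 28.4, 8.23 and 32.9 CPM in control libraries. The mean was 202 ± 155 CPM in ΔN-BAR-1 and 23.2 ± 13.2 CPM in control libraries (SD, n = 3 each). The groups did not overlap, and ΔN-BAR-1 replicate 1 was again the highest library. Without that library the gene still passed, at a log2 fold change of 2.53 (edgeR adjusted p = 0.0212). The call ended without any single control library, with log2 fold changes of 3.71, 2.67 and 3.55 and adjusted p of 0.0541, 0.139 and 0.0521 without control replicate 1, 2 or 3. Limma-voom ended it too (adjusted p = 0.235), and the range over 15 alternatives was 1.53e-05 to 0.235. All control libraries together held 8 transcripts, so the size of this change is uncertain as well.

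**Figure D3:**
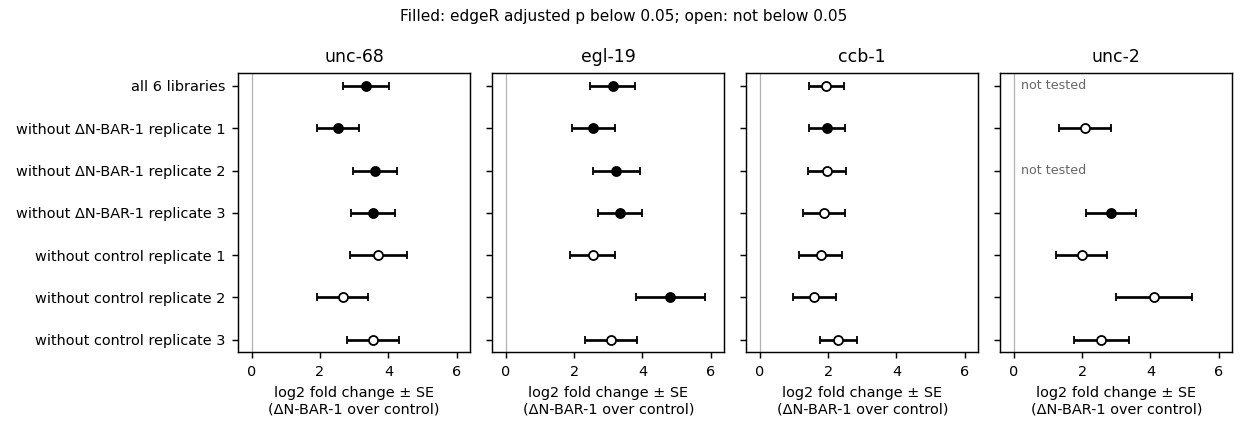
Log2 fold change (ΔN-BAR-1 over control) ± SE of unc-68, egl-19, ccb-1 and unc-2 in all 6 libraries and with each library left out. Filled symbols have an edgeR adjusted p below 0.05. The gene unc-2 was not tested with all 6 libraries or without ΔN-BAR-1 replicate 2, and has no symbol there. All estimates shown are above 0, between 1.596 and 4.82, while the symbols of unc-68 and egl-19 are open where a control library is left out, except egl-19 without control replicate 2.

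ITR-1, the inositol trisphosphate receptor, is the other store release channel and is known from the pharynx, intestine and gonad. Its gene had 0, 1 and 1 transcripts in ΔN-BAR-1 libraries and 4, 2 and 0 in control libraries. The levels were 3.33 ± 2.88 CPM in ΔN-BAR-1 and 12.2 ± 14.6 CPM in control libraries (SD, n = 3 each), near or below the level of 3 counts in each library. Without the filter the log2 fold change was −1.79 ± 1.45 (SE; edgeR adjusted p = 0.754). Of the transcripts of both release channels, unc-68 made up 100% (interval 94.8 to 100%), 95.2% (77.3 to 99.2%) and 96.2% (81.1 to 99.3%) in ΔN-BAR-1 replicates 1 to 3. In control replicates 1 and 2 it made up 50.0% of only 8 and 4 transcripts (21.5 to 78.5% and 15.004 to 84.996%), and control replicate 3 held 2 in all. Whether unc-68 and itr-1 differed in their response was not tested.

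SCA-1 is the SERCA pump, which returns calcium to the endoplasmic reticulum in many cell types. Its gene had 19, 7 and 0 transcripts in ΔN-BAR-1 replicates 1 to 3, against 9, 13 and 4 in control replicates. The levels were 103.3, 35.6 and 0 CPM in ΔN-BAR-1 libraries, against 63.9, 53.5 and 65.9 CPM in control libraries. The control libraries were close together, whereas the ΔN-BAR-1 libraries spread from the highest to the lowest value of all 6. The 0 in ΔN-BAR-1 replicate 3 allows up to 14.7 CPM (3 counts), below each control library. The log2 fold change was −0.39 ± 0.80 (SE; edgeR adjusted p = 0.925). It was −1.72 without ΔN-BAR-1 replicate 1 and 0.16 without ΔN-BAR-1 replicate 3, so no direction can be given for sca-1.

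CMD-1 is calmodulin, the most abundant of the 9 transcripts in every library. Its estimated transcripts numbered 429, 558 and 393 in ΔN-BAR-1 replicates 1 to 3, against 177, 248 and 106 in control replicates. The levels were 2332, 2836 and 1924 CPM in ΔN-BAR-1 libraries, against 1257, 1020 and 1746 CPM in control libraries. The groups were apart, but the lowest ΔN-BAR-1 library was close to the highest control library, and the log2 fold change of 0.83 ± 0.33 (SE) did not pass (edgeR adjusted p = 0.265). The estimate for this gene leans on the correction for identifiers that meet by chance. Of 256 possible identifiers, 208, 227 and 201 had been seen in ΔN-BAR-1 libraries and 128, 159 and 87 in control libraries. With distinct identifiers in place of corrected transcripts the log2 fold change was 0.20, a scale that compresses differences as identifiers run out. The other members had used at most 23.8% of the identifiers, where the correction is small.

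EGL-19 and UNC-68 are also proteins of muscle, and counts for muscle marker genes were present in the pools. Of 20 body wall muscle markers, all were in the table and 11 were tested. Their summed level was 6577, 14691 and 21137 CPM in ΔN-BAR-1 replicates 1 to 3, against 9367, 8489 and 16782 CPM in control replicates, so the groups overlapped. The muscle determinant gene hlh-1 was at 0 in all 6 libraries and the myosin gene myo-3 had 2 transcripts in all. The myosin gene unc-54, with 2272, 7218 and 15580 CPM in ΔN-BAR-1 libraries against 4460, 4681 and 5649 CPM in control libraries, made up much of the sum. Its value in ΔN-BAR-1 replicate 3 had been set at the ceiling of the identifier correction. Without unc-54 the sum was 4305, 7472 and 5557 CPM in ΔN-BAR-1 libraries, against 4907, 3809 and 11133 CPM in control libraries. Most of that remainder was the actin gene act-4, with 3240, 5785 and 3251 CPM in ΔN-BAR-1 libraries against 3004, 2920 and 6884 CPM in control libraries. Both sums, and the order of libraries by them, thus lean on unc-54 and act-4. The source of the unc-54 counts, from muscle cells or otherwise, was not tested. ΔN-BAR-1 replicate 1, the library with the highest egl-19 and unc-68, had the lowest muscle sum of all 6 libraries with unc-54 and the second lowest without it, where control replicate 2 was lower. The part of muscle RNA in the results was not tested. Of the 11 tested markers 4 were above 0, beside 50.0% of all tested genes, and edgeR called 0, as did DESeq2 and limma-voom. At an unadjusted p below 0.05 in edgeR, 1 gene, unc-97, was higher with ΔN-BAR-1, beside 8.21% of all tested genes. Pharynx markers, of which 8 were in the table, summed to 250, 198 and 372 CPM in ΔN-BAR-1 libraries and 433, 370 and 362 CPM in control libraries.

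Levels of neuronal genes are given beside those of the calcium genes. The synaptic release list had 17 tested members, of which 4 rose and 0 fell, beside 1.57% and 0.087% of all tested genes. All 17 were above 0, beside 50.0% of all tested genes. The median log2 fold change was 1.32 beside 0.0003 over all tested genes. Some of these genes had control means under the filter level of 48.5 CPM, such as snt-1 (29.0 CPM) and unc-104 (33.2 CPM). Genes low in the control libraries could enter the test only through the ΔN-BAR-1 libraries. These counts and the median are thus partly tied to the filter. The summed level of the release list was 7637, 4849 and 5033 CPM in ΔN-BAR-1 replicates 1 to 3, against 1932, 2690 and 2289 CPM in control replicates. Again ΔN-BAR-1 replicate 1 was the highest. Per 1000 CPM of that sum, egl-19 had 37.01, 27.3 and 20.4 CPM in ΔN-BAR-1 libraries and 0, 12.2 and 7.19 CPM in control libraries. By the same ratio unc-68 had 49.8, 21.0 and 24.3 CPM in ΔN-BAR-1 libraries and 14.7, 3.06 and 14.4 CPM in control libraries. Both genes kept the groups apart on this scale. The egl-19 values of control replicates 1 to 3 came from only 0, 8 and 1 transcripts, so its separation on this scale is uncertain. For unc-68 the margin was narrow, as the values of 14.7 and 14.4 CPM in control replicates 1 and 3 came from only 4 and 2 transcripts. For ccb-1 the ratio was 17.8, 25.2 and 27.2 CPM in ΔN-BAR-1 libraries and 14.7, 9.17 and 28.8 CPM in control libraries, and the groups overlapped. For unc-2 it was 21.4, 19.9 and 10.7 CPM in ΔN-BAR-1 libraries and 0, 10.7 and 7.19 CPM in control libraries, and the lowest ΔN-BAR-1 and the highest control library were level. For cmd-1 the ratio was 305, 585 and 382 CPM in ΔN-BAR-1 libraries and 651, 379 and 763 CPM in control libraries, again overlapping. These ratios are given without a test, and the part of neuronal content in the results was not tested.

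**Figure D4:**
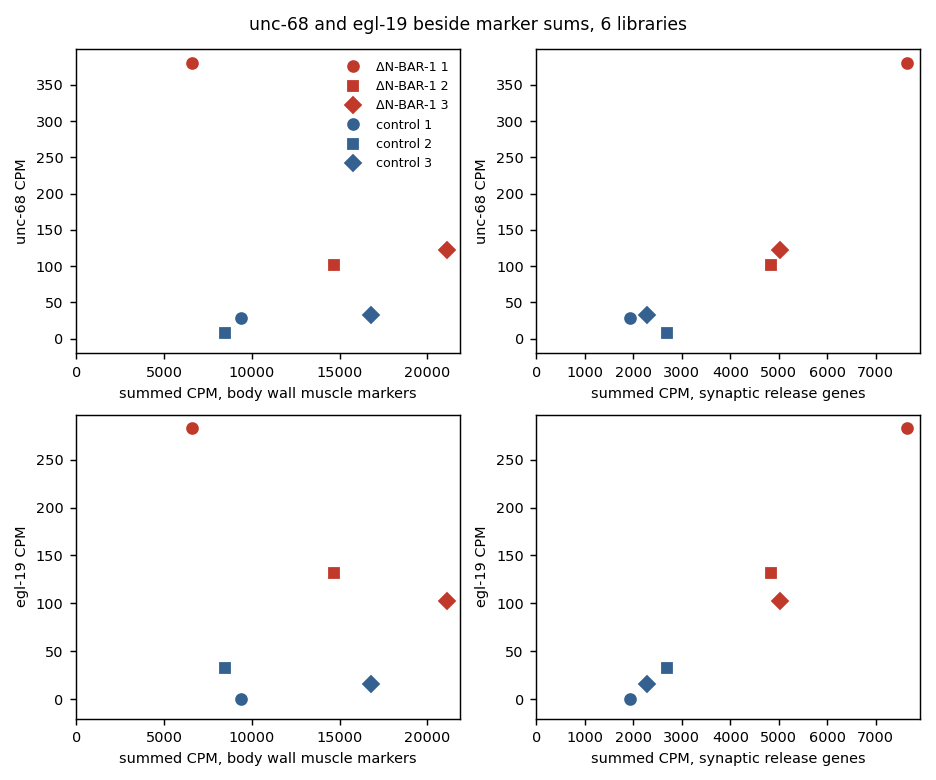
Levels of unc-68 (top) and egl-19 (bottom) in CPM against the summed CPM of body wall muscle markers (left) and of synaptic release genes (right), 1 symbol per library. ΔN-BAR-1 replicate 1 has the highest unc-68 (380 CPM) and egl-19 (283 CPM), the lowest muscle sum (6577 CPM) and the highest release sum (7637 CPM).

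The pools could be checked against the labelled lineage by its known genes. Of 20 genes of the Q lineage and of the touch and oxygen-sensing neurons, all were in the table and 17 were tested. Of the 17, 5 rose (mec-3, mec-7, mec-12, mec-18 and mig-1), beside 1.57% of all tested genes. In all, 13 of the 17 were above 0, beside 50.0% of all tested genes. Genes low in the control libraries, such as mec-18 (control mean 25.3 CPM), entered the test through the ΔN-BAR-1 libraries, so these counts are partly tied to the filter. The proneural gene lin-32 stood at −1.24 ± 0.34 (log2 fold change, SE; edgeR adjusted p = 0.0685), with its groups apart and ΔN-BAR-1 lower. The genes egl-17, unc-40 and unc-86 were also below 0, at −0.93, −0.20 and −0.16, with overlapping groups. The summed level of all 20 genes was 8710 to 10507 CPM in ΔN-BAR-1 libraries and 5525 to 6046 CPM in control libraries. Intestine markers summed to 25.4 to 54.4 CPM in ΔN-BAR-1 and 24.7 to 114 CPM in control libraries, and hypodermis and seam markers to 294 to 1337 CPM in ΔN-BAR-1 and 901 to 1257 CPM in control libraries.

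The genes whose levels followed those of the calcium genes most closely were found by Pearson correlation of log2 CPM over the 6 libraries, which mixes the difference between groups with that within them. For egl-19 these were hot-4 (r = 0.997), the phosphatidylinositol transfer protein gene pitp-1 (0.992) and the vesicle GTPase gene rab-3 (0.991). For unc-68 they were ntl-9 (0.988), the LRRK kinase gene lrk-1 (0.981) and lron-3 (0.979). For ccb-1 they were the potassium channel gene twk-7 (0.989), H11E01.3 (0.981) and the neuropeptide gene flp-12 (0.979). For cmd-1 they were the homeobox gene zag-1 (0.988), F53C3.3 (0.983) and the Atg8 family gene lgg-2 (0.982). For unc-36 they were the ankyrin gene unc-44 (0.970), R90.1 (0.968) and C39D10.5 (0.968). For sca-1 they were the importin gene ima-3 (0.989), cgh-1 (0.983) and C26F1.3 (0.982). These values describe 6 libraries, picked from 3447 genes for being high.

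Partners of the channels were mostly below the filter. Of 18 listed genes for other calcium entry routes and channel partners, 16 were in the table and 3 were tested. Calls by edgeR, DESeq2 and limma-voom numbered 0. At an unadjusted p below 0.05 in edgeR, 1 gene was higher and 1 lower, beside 8.21% and 3.42% of all tested genes. The gene calf-1, whose product helps calcium channels leave the endoplasmic reticulum, stood at a log2 fold change of 0.53 ± 0.44 (SE). The gene nlf-1, which does the same for the sodium leak channel, stood at 1.26 ± 0.47 (edgeR adjusted p = 0.227). The mechanosensitive channel gene pezo-1 stood at −0.93 ± 0.33 (edgeR adjusted p = 0.174). The sodium leak channel subunit gene unc-79, singled out after its values were seen, had 34, 15 and 11 transcripts in ΔN-BAR-1 libraries and 3, 4 and 1 in control libraries. It passed with no filter (log2 fold change 2.44 ± 0.66, edgeR adjusted p = 0.0314).

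None of the other calcium store genes passed the test. All 9 were in the table and 5 were tested. Calls by edgeR, DESeq2 and limma-voom numbered 0, with 0 at an unadjusted p below 0.05 in edgeR. The median log2 fold change was −0.22, beside 0.0003 over all tested genes. The calreticulin gene crt-1, a calcium buffer of the endoplasmic reticulum, had 3336 ± 530 CPM in ΔN-BAR-1 and 3889 ± 538 CPM in control libraries (SD, n = 3 each). The calumenin gene calu-1, the calnexin gene cnx-1 and the presenilin gene sel-12 stood at log2 fold changes of −0.44 ± 0.34, 0.24 ± 0.33 and −0.30 ± 0.41 (SE). The junctophilin gene jph-1, whose product ties the store to the cell membrane, was below the filter. Singled out after its values were seen, it had 11, 10 and 6 transcripts in ΔN-BAR-1 libraries and 0, 5 and 0 in control libraries.

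In a list of Gq, phospholipase C and inositol trisphosphate pathway genes, 16 of 17 were in the table. Of these, 6 were tested and 1 rose, beside 1.57% of all tested genes. That gene, pkc-1, had 1 transcript in control replicate 3 and entered the test through the ΔN-BAR-1 libraries, so this count is tied to the filter. The protein kinase C gene pkc-1 rose by 2.04 ± 0.51 on the log2 scale (SE), with 239 ± 146 CPM in ΔN-BAR-1 and 49.5 ± 32.9 CPM in control libraries (SD, n = 3 each; edgeR adjusted p = 0.0463). Its call ended without any single control library or without ΔN-BAR-1 replicate 1 (adjusted p 0.0838 to 0.249), and also with upper quartile scaling (0.0724), the non-robust fit (0.0693), thinning (0.0871) and limma-voom (0.314), and 7 of 16 alternatives called it. The phospholipase C gene egl-8 stood at 0.99 ± 0.42 and the regulator gene eat-16 at 1.082 ± 0.38, neither past the test, and gpb-2 stood at 0.50 ± 0.34. The list's median was 0.75, beside 0.0003 over all tested genes.

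Genes for removing calcium from the cytosol were nearly all low. Of 15 listed, 14 were in the table and 2 were tested, and edgeR, DESeq2 and limma-voom called 0. At an unadjusted p below 0.05 in edgeR, 1 gene was higher, beside 8.21% of all tested genes. That gene was mca-3, a plasma membrane calcium pump, at 1.07 ± 0.36 on the log2 scale (SE; edgeR adjusted p = 0.156). The mitochondrial uptake regulator gene micu-1 stood at −0.44 ± 0.54.

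Downstream of calmodulin, 27 of 28 listed genes were in the table, 10 were tested and all 10 were above 0, with a median log2 fold change of 1.07. Of all tested genes 50.0% were above 0, with a median of 0.0003. Genes low in the control libraries, such as ckk-1 (control mean 34.6 CPM), could enter the test through the ΔN-BAR-1 libraries, so the count above 0 and the median are partly tied to the filter. Over all genes edgeR called 0 of these 10, limma-voom 0 and DESeq2 2 (unc-43 and ncs-2, adjusted p = 0.0399 and 0.0451). At an unadjusted p below 0.05, 4 were higher, beside 8.21% of all tested genes. With distinct identifiers, a scale that compresses differences, unc-43 had a log2 fold change of 0.85 (edgeR adjusted p = 0.127) and ncs-2 of 0.63 (edgeR adjusted p = 0.400). The calmodulin kinase genes cmk-1 and unc-43 stood at 1.33 ± 0.36 and 1.16 ± 0.31 (SE; edgeR adjusted p = 0.0606 for each). The neuronal calcium sensor gene ncs-2 stood at 1.12 ± 0.32 (edgeR adjusted p = 0.0789), with 1622 ± 362 CPM in ΔN-BAR-1 and 751 ± 123 CPM in control libraries (SD, n = 3 each).

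At the synapse, where UNC-2 acts, the genes that rose were ric-4, which encodes SNAP-25 (2.04 ± 0.37), the synapsin gene snn-1 (2.40 ± 0.47), the vesicle kinesin gene unc-104 (2.74 ± 0.56) and rab-3 (1.97 ± 0.42), given as log2 fold changes ± SE, and their adjusted p-values by edgeR were 0.00570, 0.00765, 0.0118 and 0.0167. No call of the 4 survived the loss of every control library in turn: ric-4 and rab-3 without control replicate 1 or 3, unc-104 without control replicate 1 or 2, and snn-1 without control replicate 2 (edgeR adjusted p 0.0631 to 0.183 over these). Limma-voom ended the calls of snn-1 (0.0956), unc-104 (0.199) and rab-3 (0.0904), and thinning those of snn-1 (0.0504) and rab-3 (0.0682). With distinct identifiers ric-4 had a log2 fold change of 1.37, still past the test. The RIM-binding protein gene rimb-1, whose product links calcium channels to release sites, stood at 1.79 ± 0.47 (edgeR adjusted p = 0.0578). The vesicle calcium sensor gene snt-1 stood at 1.87 ± 0.57 and the priming factor gene unc-13 at 1.61 ± 0.53. The RIM gene unc-10 was below the filter; it was singled out after its values were seen, with 29, 11 and 9 transcripts in ΔN-BAR-1 libraries and 2, 3 and 0 in control libraries, and passed with no filter (2.83 ± 0.76, edgeR adjusted p = 0.0283). Potassium channel genes, which oppose calcium entry, had 28 of 30 in the table and 3 tested, of which 1 rose, beside 1.57% of all tested genes. That was the two-pore type channel gene twk-7, by 2.51 ± 0.54 (edgeR adjusted p = 0.0167). Its call was lost without control replicate 1 or 2 (edgeR adjusted p 0.183 and 0.203) and with limma-voom (0.103). The gene was low in the control libraries (mean 34.5 CPM) and entered the test through the ΔN-BAR-1 libraries, so this count is tied to the filter. The genes slo-1 and unc-103 stood at 0.83 ± 0.57 and 0.31 ± 0.43.

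**Figure D5:**
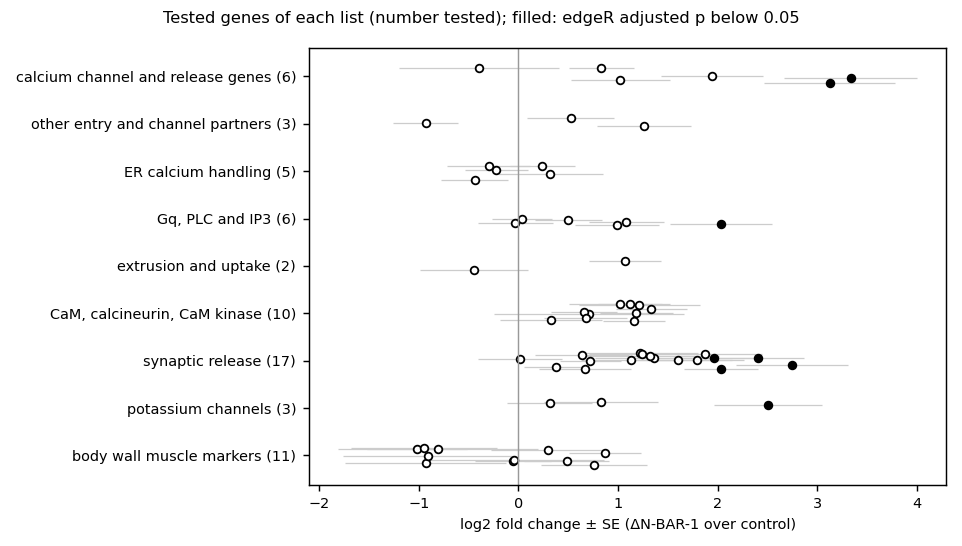
Log2 fold change (ΔN-BAR-1 over control) ± SE of every tested gene in 9 lists, with the number tested in brackets; filled symbols have an edgeR adjusted p below 0.05. Of the calcium genes unc-68 (3.34) and egl-19 (3.12) are the filled symbols, and they are the highest values in the plot.

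In the annotation used here, 42 other genes lie over the 9 calcium genes on either strand, nearly all of them noncoding RNAs. None of these 42 is a row of the count table. A protein-coding gene, C50C3.1, overlaps exons of unc-36 on the opposite strand, and an antisense RNA gene, K11D9.5, those of sca-1. Noncoding RNA genes also overlap exons of egl-19 (21ur-15006 and C48A7.12), unc-2 (F25H10.4, F25H10.6, T02C5.7 and Y76F7A.4), cca-1 (C54D2.11) and itr-1 (F33D4.12). Whether the counting used strand is not given in the sources used here. Nothing overlaps ccb-1 or cmd-1, and exons of unc-68 are free of other genes. The annotated coding transcripts of unc-2 and unc-68 end at 6 positions each, those of egl-19 and unc-36 at 3 and that of ccb-1 at 1, and 3′ counts per gene do not say which isoforms were present.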

How the data were processed

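CEL-seq libraries were made from pools of QR descendants, per the labels' protocols, with CEL-seq2 for the sequencing step. The table deposited by the authors holds estimated counts (transcripts per gene) without normalisation between libraries. Its aligner, build and annotation are not given in the sources used. Inverting the correction for 256 identifiers gave whole identifiers within 0.02 for 99.96 to 99.99% of values above 0 per library. ΔN-BAR-1 replicate 3 carried a rescaled form of it. Estimates were rounded to integers and fitted by edgeR 4.0.16 under R 4.3.3 (TMM, filterByExpr with min.count 10 and min.total.count 15, robust quasi-likelihood F test, two-sided, Benjamini-Hochberg over 3447 genes, threshold 0.05), with the group as the only term. SE were derived from F. The steps were tested on simulated data. DESeq2 1.42.0, limma-voom (limma 3.58.1), other scalings, filters, thinning, 2 treatments of the identifiers, the replicate block and leaving out each library were alternatives. Members, lists and tests were chosen with earlier results of these data known. Named genes of the pathway, release and potassium lists were those called and the 3 next by p in each; marker lists were to give at most 3 names in all. Other names, crt-1 and further marker genes included, were chosen after their values were seen. Gene models came from Ensembl release 115. No sequences were used here. Libraries of 1 group differed beyond counting noise (chi-square per degree of freedom 2.33 to 8.53).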

Additional observations from a re-analysis of the deposited data

How the results depend on the processing

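Calcium genes called numbered 2 (egl-19 and unc-68), and 0 with a stricter filter (min.count 30, which tested only cmd-1), 0 after thinning to the shallowest library (which also tested only cmd-1) and 0 with limma-voom; leaving out single libraries gave 0 to 3. With no low-count filter there were 3. Over all genes the 57 calls became 101 with no filter, 35 with the stricter filter, 18 after thinning and 9 with limma-voom, and 16 to 121 without single libraries. Listed genes called numbered 11, and 17 with no filter, 4 after thinning, 3 with limma-voom and 3 to 19 without single libraries. The stricter filter left 1414 genes to test and thinning, a single draw, left 1489; elsewhere the cause was not tested. The fit with a replicate block called 19 genes, 1 calcium gene (unc-68, adjusted p = 0.0342; egl-19 had 0.114) and 3 listed genes; ric-4, unc-104, rab-3, twk-7 and pkc-1 were not called there (0.0784, 0.103, 0.129, 0.114 and 0.146). Same-numbered libraries correlated at −0.15, −0.08 and −0.03 after group means were subtracted, so nothing shows that the numbers pair the samples, and no library correlated best with its own number. Over 17 alternatives, the calcium genes gave 92 values: 82 as in the reported test, 8 no longer called, 2 newly called and 0 called with the opposite sign. Most of the 82 were for genes that the reported test had not called. The 8 lost calls were all of egl-19 and unc-68, each of which was called in 11 of the 15 alternatives that tested it. The same alternatives for single listed genes were added after the data were seen. Depth limits the low genes most in control replicate 3, where 3 counts were worth 49.4 CPM, above the control means of egl-19, unc-2, cca-1, ccb-1, unc-68 and itr-1.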
